A study of Caenorhabditis elegans with 4 samples.

Results

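The heterochronic microRNAs lin-4, let-7, mir-48, mir-84 and mir-241 are 5 of the 262 annotated microRNA hairpins of the nuclear genome of Caenorhabditis elegans, and here they were looked at for binding of the homeodomain protein UNC-62. They were taken by name from the ce11 annotation, and each hairpin was given 5000 bp on both sides. ChIP-seq had been carried out against an eGFP-tagged UNC-62 in whole L3 larvae of mixed sex, with 4 biological replicates that form 1 group and no control group among the samples. All animals were of strain OP600, which carries the unc119(ed3) mutation and the integrated transgene wgIs600, holding unc-62 with TY1, EGFP and FLAG tags together with an unc119 rescue. The tagged protein therefore came from an added copy, and whole larvae mix every tissue that makes it. Replicates 1 and 2 are labelled with a size range of 150 to 350 bp and with animals from the stock centre, while replicates 3 and 4 are labelled with microtip sonication and with animals from the laboratory itself.

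MicroRNAs are short RNAs cut from a hairpin that pair through their seed, bases 2 to 8, with messenger RNAs and lower their output. The heterochronic pathway times the larval stages: lin-4 represses lin-14 and lin-28 early in larval life, mir-48, mir-84 and mir-241 act together on hbl-1 at the passage into L3 fates, and let-7 represses lin-41 at the passage to the adult. UNC-62 is the worm counterpart of the MEIS and Homothorax proteins, which bind DNA as partners of PBX-type and Hox proteins.

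The mature microRNAs are shown because the family is defined by their seeds, given in capitals, as read from the RefSeq annotation and genome WBcel235 (ce11).
lin-4: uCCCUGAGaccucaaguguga
let-7: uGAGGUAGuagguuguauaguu
mir-48: uGAGGUAGgcucaguagaugcga
mir-84: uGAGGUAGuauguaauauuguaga
mir-241: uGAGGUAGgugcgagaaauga
The 4 members of the let-7 family share the seed GAGGUAG and lin-4 has the seed CCCUGAG. Past the seed they diverge: aligned without gaps from the 5′ end, mir-84 matched let-7 at 17 of 22 bases, mir-241 at 12 of 21 and mir-48 at 9 of 22, while lin-4 matched it at 4 of 21.

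Of the authors' 1037 optimal regions, the set kept by their irreproducibility (IDR) threshold, 6 lay in the windows of these hairpins. All 6 lay upstream of the hairpins on the strand that is transcribed. Of the 6, the neighbours mir-48 and mir-241 share 4. The side is not given for the optimal regions of other hairpins, so no share stands beside this count. The 6 regions belonged to 4 of the 5 members: lin-4, mir-48, mir-84 and mir-241. let-7 had none. The 6 regions are shown by the 101 bases centred on the summit, on the plus strand of ce11 from RefSeq, and each is named by its nearest member and by its distance upstream in bp. Capitals mark TGCA where it begins 13 bp before the summit, a match described with the motifs below.
mir-241 461 bp: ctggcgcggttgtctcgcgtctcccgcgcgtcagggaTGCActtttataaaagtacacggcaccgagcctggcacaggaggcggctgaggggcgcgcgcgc
mir-84 2363 bp: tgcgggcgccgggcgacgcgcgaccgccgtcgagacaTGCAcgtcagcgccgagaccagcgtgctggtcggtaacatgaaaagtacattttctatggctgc
mir-241 2169 bp: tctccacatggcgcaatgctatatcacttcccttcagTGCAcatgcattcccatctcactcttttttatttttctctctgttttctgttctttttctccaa
mir-241 3274 bp: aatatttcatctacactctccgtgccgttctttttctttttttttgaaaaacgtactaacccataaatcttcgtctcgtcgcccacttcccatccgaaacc
mir-241 2393 bp: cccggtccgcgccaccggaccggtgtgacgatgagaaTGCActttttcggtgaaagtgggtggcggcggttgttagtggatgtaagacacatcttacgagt
lin-4 458 bp: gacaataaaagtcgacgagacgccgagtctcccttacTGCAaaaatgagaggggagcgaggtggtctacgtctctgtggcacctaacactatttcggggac
These windows lie at chrV:14366694-14366794, chrX:16024791-16024891, chrV:14368402-14368502, chrV:14369507-14369607, chrV:14368626-14368726 and chrII:5901746-5901846, in that order.

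The members' share was set beside the same count over other genes. Among the members 4 of 5 had an optimal region in the window, and among the other 257 hairpins 35 had one; over all 262 hairpins the share was 14.9%. Over 19973 protein-coding genes 8.97% had an optimal region within 5000 bp of a start, and 8.87% of nuclear bases lay that close to one. mir-48 and mir-241 are neighbours whose hairpins are 1678 bp apart and whose windows share 8322 bp, so the 5 windows are 4 separate stretches and the same 4 regions count for both genes. No test was made, because the members were chosen with earlier results of these data known. The merged list, derived from all 4 replicates and holding 18556 peaks and background regions, says little by comparison. All 5 members had a merged region, as did 212 of the other 257 hairpins and 82.8% of all hairpins.

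**Figure D1:**
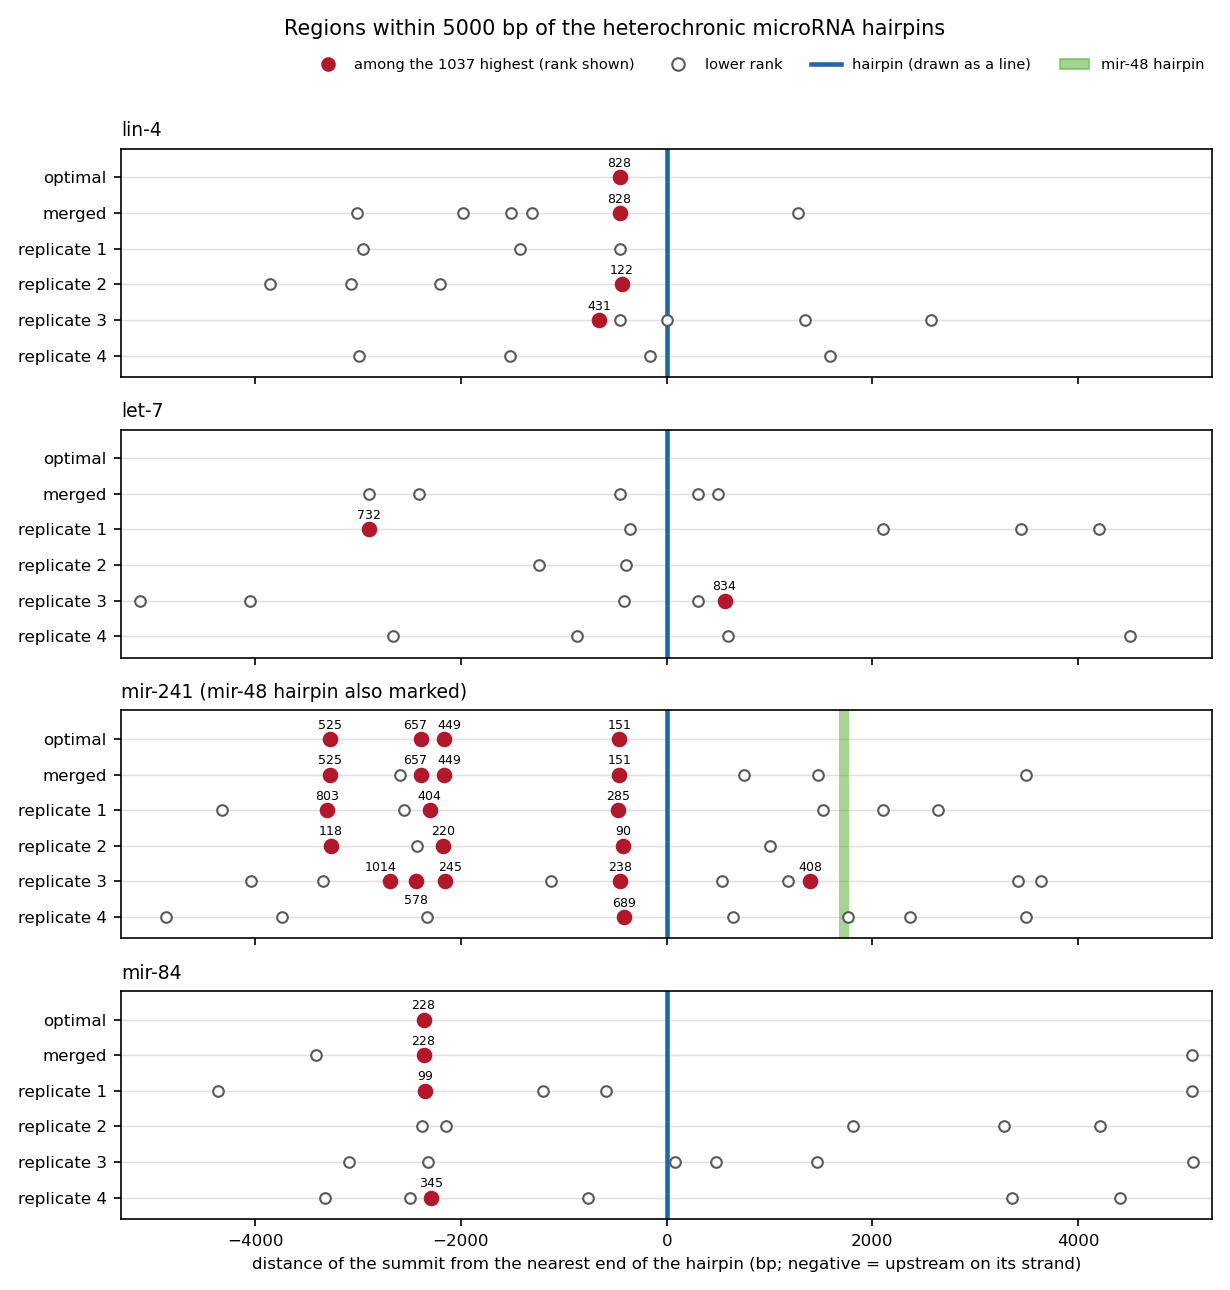
Summits of the regions within 5000 bp of each hairpin, by distance from the nearest hairpin end in bp (negative is upstream), with a row for each of the 6 lists; filled points are among the 1037 highest of their list and carry their rank, open points rank lower. The optimal regions all lie left of the hairpin, and the column 461 bp upstream of mir-241 is filled in every row.

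In each replicate's own list the authors' signal was ranked from 1 for the highest, since signals are on a different scale in each list. Support from a replicate meant an overlap of 1 bp or more with one of its 1037 highest regions. The replicate lists hold 28073 to 30000 regions each, background included, so that being listed at all is common. The optimal list was itself derived from these replicates, so support is a description and no independent check. Support over all 1037 optimal regions is not given here, so a count of supporting replicates cannot be called high or low. A separate count took any of a replicate's 1037 highest regions in a member's window, whether or not it overlapped an optimal region. Such a high-ranking region was found for 4 members (mir-48, mir-241, mir-84 and let-7) in replicate 1, beside 14.9% of all hairpins. In replicate 2 it was 3 members (lin-4, mir-48 and mir-241), beside 13.0%. In replicate 3 it was 4 members (lin-4, let-7, mir-48 and mir-241), beside 13.0%. In replicate 4 it was 3 members (mir-48, mir-241 and mir-84), beside 12.2%. Only the mir-48 and mir-241 locus was present in all 4. Mitochondrial regions took 29 and 30 of the 1037 highest places in replicates 3 and 4 and none in replicates 1 and 2. When nuclear regions alone were ranked, lin-4 was added in replicate 4, where its best region moved from place 1058 to place 1028. That region has its summit 1527 bp upstream of lin-4 and is not the optimal region. The share of 12.2% belongs to the ranking with mitochondrial regions.

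mir-48 and mir-241 lie on the minus strand of chromosome V, with hairpins at chrV:14364412-14364509 and chrV:14366188-14366283. No protein-coding gene overlaps either hairpin, and the nearest protein-coding starts are those of Y49A3A.4, 5522 bp past mir-48, and of unc-39, a Six-type homeodomain gene on the plus strand, 6791 bp from mir-241. This locus held 4 optimal regions, all between mir-241 and unc-39. Over all 262 hairpins 223 had no optimal region and 27 had 1, and the only hairpins with 4 or more were mir-48, mir-241 and mir-71, which had 5.

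The region nearest to mir-241 was also the highest of the 6. It spans chrV:14366691-14366788, is only 98 bp wide where the median optimal region is 356 bp, and has its summit 461 bp upstream of mir-241 and 2235 bp upstream of mir-48, in an exon of the non-coding RNA gene F56A12.8 on the opposite strand. Its signal of 78.4 put it at rank 151 of the merged list, where the optimal regions ranged from 37.3 to 243.8 with a median of 50.5. In replicates 1 to 4 the overlapping region ranked 285, 90, 238 and 689, with signals of 34.2, 21.0, 17.6 and 8.30. All 4 replicates placed it among their 1037 highest. The 4 summits were 469, 426, 454 and 412 bp upstream of mir-241, on average 440 ± 25.9 bp (SD, n = 4). Only replicate regions that overlap the 98 bp region were taken, so this rule limits the spread of the summits. The ranks varied several-fold.

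The other 3 optimal regions of the locus stood farther upstream and were supported by fewer replicates. The region at chrV:14368274-14368629, 2169 bp upstream of mir-241, had a signal of 53.2 and rank 449. In replicates 1 to 4 the highest overlapping region ranked 404, 220, 245 and 2492, so that replicate 4 gave no support. The region at chrV:14368498-14368853, 2393 bp upstream, had a signal of 46.0 and rank 657 and overlaps it. The highest overlapping region was the same in every replicate, which leaves these 2 regions without separate support from ranks alone; by nearest summit the second ranked 404, 2445, 578 and 2492. Within these spans replicate 2 listed summits at 2170 and 2429 bp and replicate 3 at 2160 and 2440 bp, close to the merged pair. Replicate 1 listed them at 2303 and 2553 bp, and replicate 4 had 1 summit, at 2333 bp.

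The region farthest from mir-241, at chrV:14369379-14369734, had its summit 3274 bp upstream, in an exon of the non-coding RNA gene F56A12.10, and 3517 bp from the start of unc-39. Its signal was 50.1 and its rank 525. It ranked 803, 118 and 2717 in replicates 1, 2 and 3 and had no overlapping region in replicate 4. Support thus came from replicates 1 and 2, which are labelled with the size range, and from neither of the other pair; with the 518 highest regions taken per replicate, only replicate 2 supported it. Its 3 replicate summits, again taken from overlapping regions only, averaged 3302 ± 38.0 bp upstream (SD, n = 3). The region counts for mir-48 only by its edge, at 4870 bp, because its summit is 5048 bp away.

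Close to mir-48 itself the signal was lower. The merged list had a region 205 bp upstream of the hairpin at rank 7510 and another 925 bp upstream at rank 17003. Replicate 3 had a region 284 bp upstream at rank 408, among its highest. In replicate 1 a region 164 bp upstream ranked 2992 and in replicate 2 one 680 bp upstream ranked 1332. In replicate 4 a summit lay within the hairpin, at rank 11443. A high rank beside the mir-48 hairpin was therefore found in 1 of 4 replicates.

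**Figure D2:**
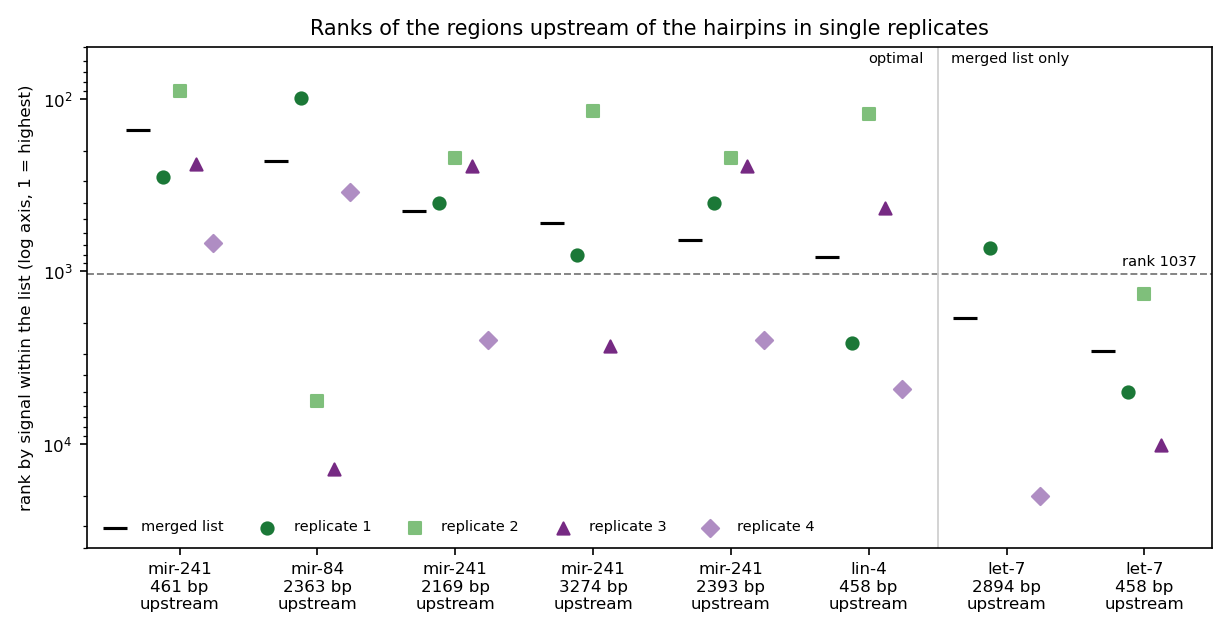
Rank of the overlapping region in each replicate (symbols) and in the merged list (black bars), on a log axis with 1 at the top, for the 6 optimal regions and the 2 highest merged regions of let-7; the dashed line marks rank 1037. For the region 461 bp upstream of mir-241 all 4 replicates lie above the line, and for the region at mir-84 replicates 1 and 4 lie above it and replicates 2 and 3 below.

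mir-84, on the minus strand at chrX:16022404-16022478, had a single optimal region, at chrX:16024663-16025018. The summit lay 2363 bp upstream in sequence with no annotated gene, between mir-84 and mboa-1, an acyltransferase gene whose start is 5965 bp from the summit. Its signal of 68.2 gave rank 228, second among the 6. The replicates were divided: the highest overlapping region ranked 99 in replicate 1 and 345 in replicate 4, but 5682 in replicate 2 and 14071 in replicate 3. The split ran across both label sets, with 1 supporting replicate in each. Each replicate listed a region overlapping the optimal one, and the summits nearest to the merged summit were 2346, 2383, 2320 and 2295 bp upstream. Their average was 2336 ± 37.6 bp (SD, n = 4). They were chosen by overlap and nearness, so their closeness does not show that the replicates agree on a position. The one in replicate 2 was a weaker neighbour at rank 13297, while the region ranked 5682 had its summit 2145 bp upstream. On the other side of mir-84, a merged region 5106 bp downstream, in nhx-1, a sodium and proton exchanger gene, had rank 2436 and reached the window only by its edge. Replicate 3 had its best rank for mir-84 there, 3348.

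lin-4, at chrII:5902254-5902347 on the plus strand, lies in an intron of the protein-coding gene F59G1.4 in the same orientation, and a non-coding RNA gene, F59G1.10, overlaps the hairpin on the other strand. F59G1.4 has a start 6084 bp upstream of the hairpin and a further one 1134 bp downstream of it. The only optimal region, at chrII:5901618-5901973, lay in the host intron with its summit 458 bp upstream of the hairpin and 1685 bp upstream of that further start. A position upstream of lin-4 is thus also a position upstream of a host gene start, and these lists do not tell the pair apart. The signal was 41.4 and the rank 828, the lowest of the 6 regions. The highest overlapping region ranked 2607, 122, 431 and 4822 in replicates 1 to 4, so that replicates 2 and 3 supported it, 1 from each label set. When summits had to lie within 100 bp, or the overlap had to reach 50% of both regions, 1 replicate supported it. The nearest replicate summits were 459, 434 and 455 bp upstream in replicates 1, 2 and 3 and 166 bp upstream in replicate 4. In replicate 3 the region of rank 431 had its summit at 656 bp, and the region whose summit lay at 455 bp ranked 3422. The best region of replicates 1 and 4 in the lin-4 window was another one, with summits 1424 and 1527 bp upstream and ranks 1518 and 1058, beside a merged region 1517 bp upstream of rank 3743.

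let-7, on the minus strand at chrX:14744173-14744271, had no optimal region in its window. The nearest, at chrX:14753536-14753891, was 9265 bp from the hairpin, had a signal of 43.4 and rank 754 and was supported by 2 replicates. The annotated let-7 gene, which includes the primary transcript, spans chrX:14743590-14745321, and taking the window from that span added no optimal region. Its merged list held 5 regions, and the 2 of highest rank are shown here with the same conventions; the capitals in the second mark a GAGA run, which holds GAGAGAGA at 2 overlapping places.
let-7 2894 bp: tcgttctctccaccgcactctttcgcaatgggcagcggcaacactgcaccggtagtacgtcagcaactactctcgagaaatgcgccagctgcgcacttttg
let-7 458 bp: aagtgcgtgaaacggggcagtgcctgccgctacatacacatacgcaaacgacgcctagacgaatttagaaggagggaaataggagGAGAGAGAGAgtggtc
These windows lie at chrX:14747115-14747215 and chrX:14744679-14744779.

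The first of these had a signal of 28.0 and rank 1859, and its summit was 138 bp upstream of the start of C05G5.2, which is transcribed away from let-7. Replicate 1 had the same summit at rank 732, replicate 4 a region at rank 20151, and replicates 2 and 3 none. The second lay within the primary transcript, 458 bp upstream of the hairpin, with a signal of 22.7 and rank 2902. It was listed in replicates 1, 2 and 3, at ranks 5035, 1355 and 10096 with summits 358, 397 and 411 bp upstream, and was not listed in replicate 4. Another merged region, 499 bp downstream of the hairpin, had rank 3551. Its summit lay in a coding exon of C05G5.7 and also within the annotated let-7 gene. It ranked 834 in replicate 3 and 8303 in replicate 4 and was not listed in the others. The high ranks of replicates 1 and 3 at let-7 were therefore at different places, one upstream and one downstream, and neither was supported by a second replicate. The remaining 2 merged regions ranked 9412 and 18007.

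Over the 4 replicates the best rank in the window gives an order of the members. The geometric mean was 255 for mir-48 and mir-241, which share their best region, 539 for lin-4, 898 for mir-84 and 1240 for let-7. The SDs of the log10 ranks were 0.36, 0.49, 0.83 and 0.27, in that order, each over n = 4. A best rank is not tied to 1 site, so a small SD does not mean that a site recurred. At let-7 the best regions of replicates 1 to 4 lay 2894 and 397 bp upstream, 562 bp downstream and 873 bp upstream. At lin-4 those of replicates 1 and 4, and at mir-84 that of replicate 3, were not the optimal region. For the optimal regions themselves the geometric mean was 902 at lin-4 and 1285 at mir-84. The ranges of the best ranks overlapped between neighbours: 90 to 689 at mir-48 and mir-241, 122 to 1518 at lin-4, 99 to 5682 at mir-84 and 732 to 2854 at let-7. Only the first and the last of these ranges did not overlap. Among all 262 hairpins in the merged list, mir-48 and mir-241 shared place 8, mir-84 took place 11, lin-4 place 32 and let-7 place 71. In single replicates mir-48 and mir-241 held places 15, 2, 15 and 24 and mir-84 places 4, 129, 97 and 8. The places of lin-4 were 65, 4, 22 and 33, and those of let-7 were 32, 50, 32 and 71.

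**Figure D3:**
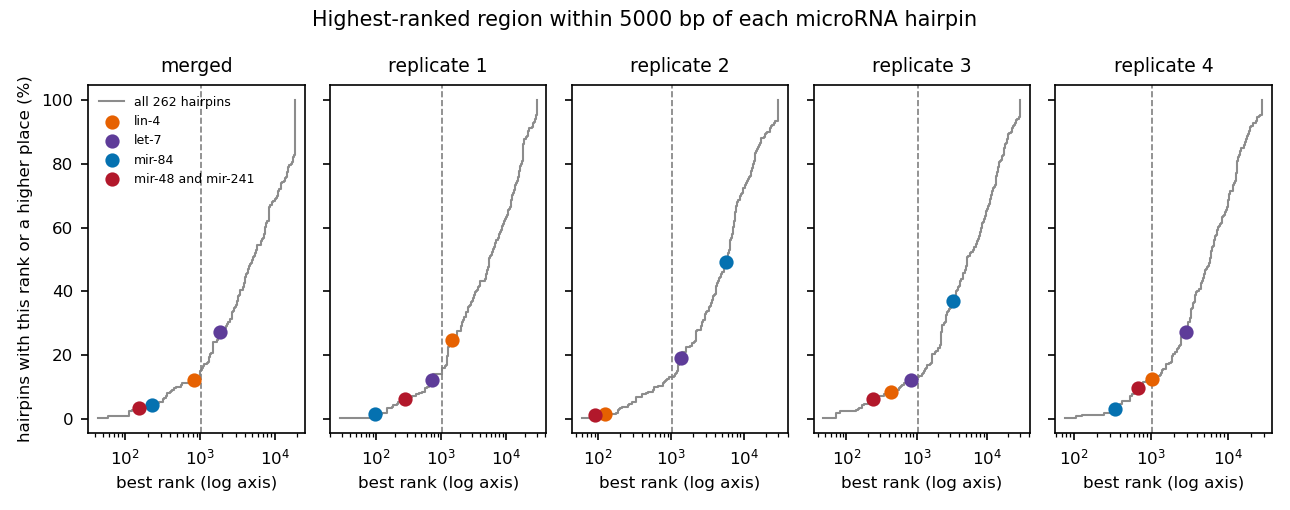
Cumulative share of the 262 microRNA hairpins (%) against the best rank within 5000 bp, on a log axis, in the merged list and in each replicate; coloured points mark the members and the dashed line rank 1037. mir-48 and mir-241 lie left of the line in every panel, and mir-84 is at place 4 in replicate 1 and at place 129 in replicate 2.

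The microRNAs whose best ranks ran most like a member's, over the 4 replicates and by distance in log10 rank, were looked up for the 4 members with an optimal region, so not for let-7. For mir-48 and mir-241 they were mir-4929, at a distance of 0.45, mir-71 at 0.62 and mir-90 at 0.76, all with an optimal region. mir-71 ranked 87, 59, 151 and 419 in replicates 1 to 4. For lin-4 they were mir-58.1 at 0.62, without an optimal region, and the neighbours mir-51 and mir-53 at 0.67, with one. For mir-84 the nearest was mir-2221 at 0.94, which has an optimal region and ranked 472, 6413, 2691 and 78, low in replicates 2 and 3 as at mir-84; mir-788 and mir-8210 followed at 1.12 and 1.16, without one.

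The members' seeds are found in 2 further hairpins, and neither had an optimal region. mir-237, which has the lin-4 seed, had 5 merged regions, the best at rank 1128, and ranked 1333, 7076, 598 and 3561 in replicates 1 to 4. mir-795, which has the let-7 seed, had no merged region within 5000 bp, and its best replicate ranks lay between 5658 and 28852.

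The 101 bases around each summit were read on either strand for 6 motifs: TGACAG, the MEIS and Homothorax core, TGATTGAT and its looser form TGATNNAT for PBX with Hox, GAGAGAGA, the E-box CACGTG and the homeodomain core TAATTA. TGATTGAT lies within TGATNNAT. None of the 6 optimal regions at the members held any of them. Over all 1037 optimal regions TGACAG was in 10.1%, TGATTGAT in 3.57%, TGATNNAT in 13.1%, GAGAGAGA in 9.55%, CACGTG in 4.34% and TAATTA in 1.25%. Over the whole length of the regions TGACAG was in the pair 2169 and 2393 bp upstream of mir-241, beside 20.9% of all optimal regions. That pair overlaps and may share 1 match. Over the whole length GAGAGAGA was in the regions of mir-84 and lin-4, beside 23.8%. A missing match says only that these letters are not in these windows.

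On reading the windows, the letters TGCA were seen to begin 13 bp before the summit in 5 of the 6 regions, all but the one 3274 bp upstream of mir-241. The same letters stood at that offset in 8 of all 1037 optimal regions, or 0.771%, and those 8 include these 5. In merged regions the share at that offset was 0.329%. Anywhere in the window the letters were in 33.9% of optimal regions. In 3 of the 5, the regions 461 and 2393 bp upstream of mir-241 and that of mir-84, they were part of ATGCAC, which was in 3.47% of all optimal windows. This was picked after the sequences had been seen, out of very many possible letters and offsets, so no test applies. The exact offset was seen at merged summits only. Measured from the replicates' own summits the same letters began between 305 bp before and 77 bp after, and none of the 20 offsets was 13 bp. Some came near: 14 bp before in replicate 2 for the region 2169 bp upstream of mir-241, and 12 and 16 bp before in replicates 1 and 3 at lin-4. Replicate summits are spread around the merged ones, so the lack of an exact match decides little. Base composition was not shared either. The windows 461 bp upstream of mir-241 and at mir-84 were 67.3% and 63.4% G and C, those 2169 and 3274 bp upstream of mir-241 39.6% and 40.6%, and the median of all optimal windows was 47.5%, with quartiles of 42.6 and 52.5%.

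The protein-coding genes of the same pathway, a list of 24 that includes targets, cofactors and regulators of these microRNAs, had an optimal region within 5000 bp of a start in 12 cases, or 50%, beside 8.97% of all protein-coding genes. The list was drawn up with earlier results of these data known, and genes with many starts have larger windows. Among the targets, lin-14 had 2 optimal regions, the better of rank 542, lin-28 1 of rank 355, hbl-1 1 of rank 181 with its summit 5111 bp from a start, and daf-12, a nuclear hormone receptor gene, 1 of rank 599. lin-41, the best-known let-7 target, had none, and its best merged region was of rank 1094. Among genes that act with microRNAs, the Argonaute gene alg-1 had 1 of rank 726, the GW182-type gene ain-1 1 of rank 390 and the TRIM-NHL gene nhl-2 1 of rank 25, with a signal of 147.6. alg-2, the other Argonaute gene of the list, had no optimal and no merged region. The Pumilio-type gene puf-9 had rank 41, lin-42, a Period-like gene, rank 235, din-1, a corepressor gene, rank 167 as the best of 5 regions, kin-20 rank 530 as the best of 4, and lin-66 rank 377. Of these 12, the best regions of lin-42, din-1, nhl-2 and puf-9 were supported by all 4 replicates, as was the region 461 bp upstream of mir-241. The best regions of the other genes among the 12 were supported by 2 or 3 replicates. Apart from hbl-1, at rank 181, these 4 genes also had the highest merged ranks of the 12. Support over all optimal regions is not given, so these counts cannot be called high or low.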

How the data were processed

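Regions were analysed as deposited on ce11: 1 optimal list, 1 merged list and 1 list per replicate. Per the notes deposited with the files, the optimal list came from the merged and replicate lists by an irreproducibility (IDR) threshold, and the merged list from the alignments of all replicates with a control. No aligner, caller or threshold is named in the labels or notes used here, and depth is unknown. The authors' signal per region and the deposited −log10 q-value were kept as they stand. Signals were used only for ranks within a list. All 1037 optimal regions are the 1037 highest of the merged list. The −log10 q-value was at its highest for all 6 member regions and was not used for ranks.

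Hairpins and sequences came from RefSeq WBcel235, gene starts and overlaps from Ensembl release 115. Distances run from the authors' summit to the nearest hairpin end. With 1 group there is no contrast and no p-value. The labels name the replicates as biological replicates, and spreads are over those 4. Members, gene list and motifs were chosen with earlier results of these data known. The genes named were the members, genes at or nearest to their hairpins and summits, listed pathway genes with an optimal region, and the 3 microRNAs nearest in log10 rank and over 10000 bp away; lin-41, alg-2, mir-237 and mir-795 were added after their values were seen. Rules were tested on simulated regions. Python 3.11.15, pandas 2.3.3, numpy 2.4.6 and matplotlib 3.10.9 were used. The ce10 lists were not used here.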

Additional observations from a re-analysis of the deposited data

Results flagged for a closer look

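In 20 sets of 4 replicate values, the gap of the highest or lowest replicate to the next was divided by the range of the set, and 3 sets passed Dixon's critical value. Chance passes about 1 set in 20. Replicate 4 stood apart in each. For the rank of the region 2169 bp upstream of mir-241 the quotient was 0.919, with rank 2492 in replicate 4 beside 220 to 404 in the others. For the rank of the region 2393 bp upstream of mir-241 it was also 0.919, since the same replicate regions overlap it. Both quotients are on the ranks as they stand: on log10 ranks, a scale added after seeing the data, they were 0.750, under the critical value, and 0 of the 10 sets of ranks passed it. For the summit distance of the region 458 bp upstream of lin-4 it was 0.915, with 166 bp in replicate 4 beside 434 to 459 bp in the others. Why replicate 4 differed was not tested.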

How the results depend on the processing

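Of 60 recomputed counts and shares, 48 stayed within 1.5 times of the value reported. Of 82 recomputed values for single regions, 75 stayed within 1.5 times (support) or 1 SD of the replicates (ranks and distances). Neither tally is a measure of robustness, because some alternatives could not differ. A motif absent within 50 bp of the summit is also absent within 25 bp. For upstream summits the distance from the 5′ end of the hairpin is the one reported. Leaving out mitochondrial regions cannot change ranks in replicates 1 and 2, which have none. Support for the region at lin-4 was 1 replicate in place of 2 with summits within 100 bp or a reciprocal overlap of 50%, and that for the region 3274 bp upstream of mir-241 was 1 in place of 2 with 518 regions per replicate. The count of 4 members with an optimal region became 2 with a window of 2000 bp, beside 10.3% of all hairpins, and 5 with 10000 bp, beside 26.3%. It was 2 (range 2 to 2) when a region had to be among the 1037 highest of every one of 3 replicates, whichever replicate was left out: mir-48 and mir-241, which share the region 461 bp upstream of mir-241. In replicate 4 the members with a high-ranking region went down to 1 when 518 regions were taken in place of 1037. Such counts with other numbers of regions, and the gene span of let-7, were alternatives chosen after seeing the data. The recounts by 3 replicates and with 518 regions are given without a share over all hairpins. The share of supported pairs of region and replicate was 66.7%, 61.1 to 77.8% without single replicates, and 41.7% with a reciprocal overlap of 50%, which the 98 bp region at mir-241 cannot reach by its width. No such share over all 1037 optimal regions stands beside these values. Within 100 bp of the summit TGACAG was in 1 of the 6 regions, beside 15.8% of all optimal regions, and GAGAGAGA in 1, beside 17.8%. Over the whole region each was in 2, beside 20.9% and 23.8%. The 2 regions with TGACAG overlap and may share 1 match. No paired analysis was possible because there is 1 group and no test. Depth is unknown, so a region missing from a replicate may lie below what that replicate could list.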
